A study of Mus musculus with 12 samples.

Results

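The genes described here are 8 transcription factors that mark the ventral midline, the ventral forebrain and the ventral neural tube of the vertebrate embryo: Nkx2-1, Foxa1, Foxa2, Nkx2-2, Nkx2-9, Nkx6-1, Nkx6-2 and Olig2. They were taken by symbol from a table of 23284 genes, and all 8 passed the filter on low counts that left 14412 genes for testing. RNA-seq was run on single whole mouse embryos at 9.0 days post coitum, stage matched at about 9 to 10 somites, on a mixed C57BL/6 and 129Sv background. The tested embryos were 8 conditional double knockouts (CDKO) lacking both alleles of Tgif1 and of Tgif2, and they were set against 4 wild-type (WT) embryos. The sources used here name neither the Cre driver and its timing nor the part of each gene that was deleted. Litters are not named either, so the p-values measure the spread between these single embryos.

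Tgif1 and Tgif2 encode related homeodomain corepressors that restrain transcription in response to TGF-beta and Nodal signalling, and TGIF1 mutations are found in human holoprosencephaly, a failure of the forebrain to divide. The ventral regulators belong to the programme that Sonic hedgehog, released by notochord and floor plate, imposes on the neural tube. Foxa2 and Foxa1 mark the floor plate and notochord and also the gut endoderm, Nkx2-2 and Nkx2-9 mark the progenitors next to the floor plate, Olig2 marks motor neuron progenitors, and Nkx6-1 and Nkx6-2 cover broader ventral territories. Nkx2-1 marks the ventral forebrain, where hypothalamus and basal telencephalon form, and the thyroid and lung primordia of the foregut.

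The libraries held 16802367 to 21346245 assigned reads in CDKO embryos and 17296017 to 20080786 in WT embryos. As a check of the labels, Tgif1 was at 6.20 ± 0.528 CPM, a gene's reads scaled to the size of the library, in CDKO embryos and 60.9 ± 2.52 CPM in WT embryos (SD, n = 8 and 4), a log2 fold change of -3.29 with a standard error (SE) of 0.07. Tgif2 was not lower: it was at 97.9 ± 11.8 CPM in CDKO embryos and 87.3 ± 1.17 CPM in WT embryos, and a count over the whole gene cannot check a deletion whose extent is unknown (log2 fold change 0.17, adjusted p = 0.0958, and 0.21 with adjusted p = 0.0292 without CDKO embryos 7 and 8, edgeR). Markers of heart, somites, neural tissue, primitive red cells and yolk sac endoderm were all detected, as in a whole embryo. CDKO embryo 2 stood apart by a posterior tissue score (mean log2 CPM of 8 genes) of -0.24 and WT embryo 1 by 3.84, where the other CDKO embryos had 3.02 to 3.77 and the other WT embryos 4.44 to 4.49. CDKO embryos 7 and 8 had gut endoderm scores of 3.89 and 3.87, below the 4.25 to 4.47 of the other 6 CDKO embryos. Results are therefore given with and without these embryos where leaving them out changes a call.

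Of the 8 regulators, 1 fell in CDKO embryos and none rose at an adjusted p under 0.05 in edgeR's quasi-likelihood test with Benjamini-Hochberg adjustment over all genes tested. The gene that fell was Nkx2-1. At that threshold 24.9% of the tested genes were lower and 26.6% were higher in CDKO embryos, so the count among the regulators was below the background share in both directions. At an unadjusted p under 0.05 the test gave 1 regulator higher, Nkx6-1, and 1 lower. DESeq2 and limma-voom each called 1 lower and none higher. With sample quality weights, limma-voom called 3 lower, namely Nkx2-1, Nkx2-2 and Nkx2-9, and 1 higher, Nkx6-1. Without CDKO embryos 7 and 8, a pair chosen after the data were seen, edgeR called the same 3 lower and none higher. In that fit 53.6% of all genes were called. Over all alternatives other than those with 1 embryo left out, 5488 to 8639 genes were called, so these counts are to be read beside a large background.

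**Figure D1:**
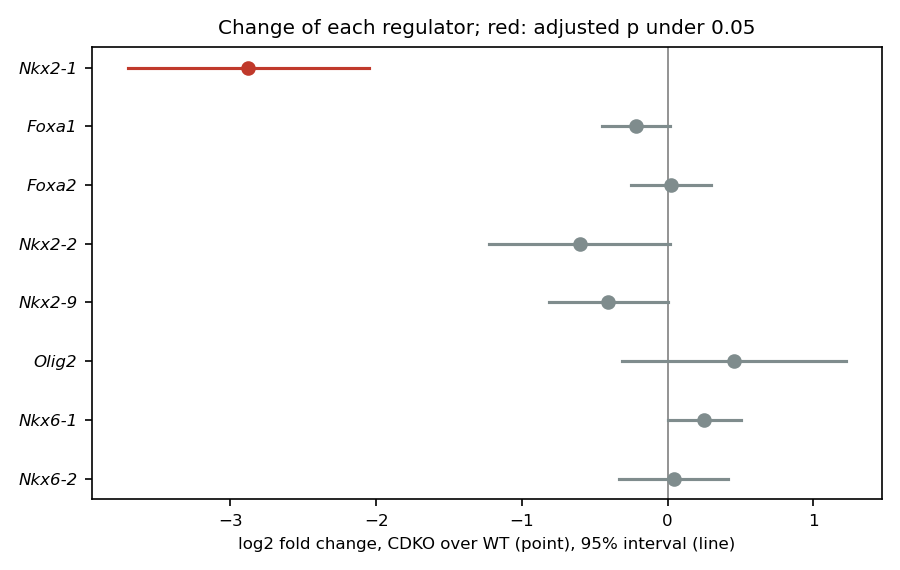
Log2 fold change of each of the 8 regulators, CDKO over WT (x axis), with the 95% interval of the edgeR fit as a line; red marks an adjusted p under 0.05. Nkx2-1 sits apart at -2.88, and the other 7 lie between -0.60 and 0.46.

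Nkx2-1, the ventral forebrain, thyroid and lung regulator, was the regulator with the largest change. Its level in the 8 CDKO embryos was 0.0987 CPM at the lowest, 0.204 at the median and 0.815 at the highest, against 3.36, 1.98, 1.73 and 1.69 CPM in the 4 WT embryos. Every CDKO embryo lay below every WT embryo, which held for 17.1% of the genes tested. Nkx2-1 was the only 1 of the 8 regulators whose groups did not overlap, where 34.7% of the genes tested did not overlap in either direction. In reads, this was 2 to 14 per CDKO embryo and 30 to 58 per WT embryo. The log2 fold change was -2.88 (SE 0.39, 95% interval -3.70 to -2.05, adjusted p = 2.42e-05 in edgeR's quasi-likelihood test), a 7.34-fold lower level in CDKO embryos. It was the 7th lowest fold change among the 14412 genes tested. An exact two-sided permutation over the 495 ways to choose 4 of 12 embryos gave p = 0.00202, the smallest it can give. WT embryo 1 had the highest value of the WT embryos, and without it the Nkx2-1 log2 fold change was -2.60 (adjusted p = 0.000173, edgeR). Without CDKO embryos 7 and 8 it was -3.52 (adjusted p = 2.1e-06, edgeR). In bulk RNA from whole embryos, fewer cells of a type and less RNA per cell cannot be told apart, here or for any gene below.

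**Figure D2:**
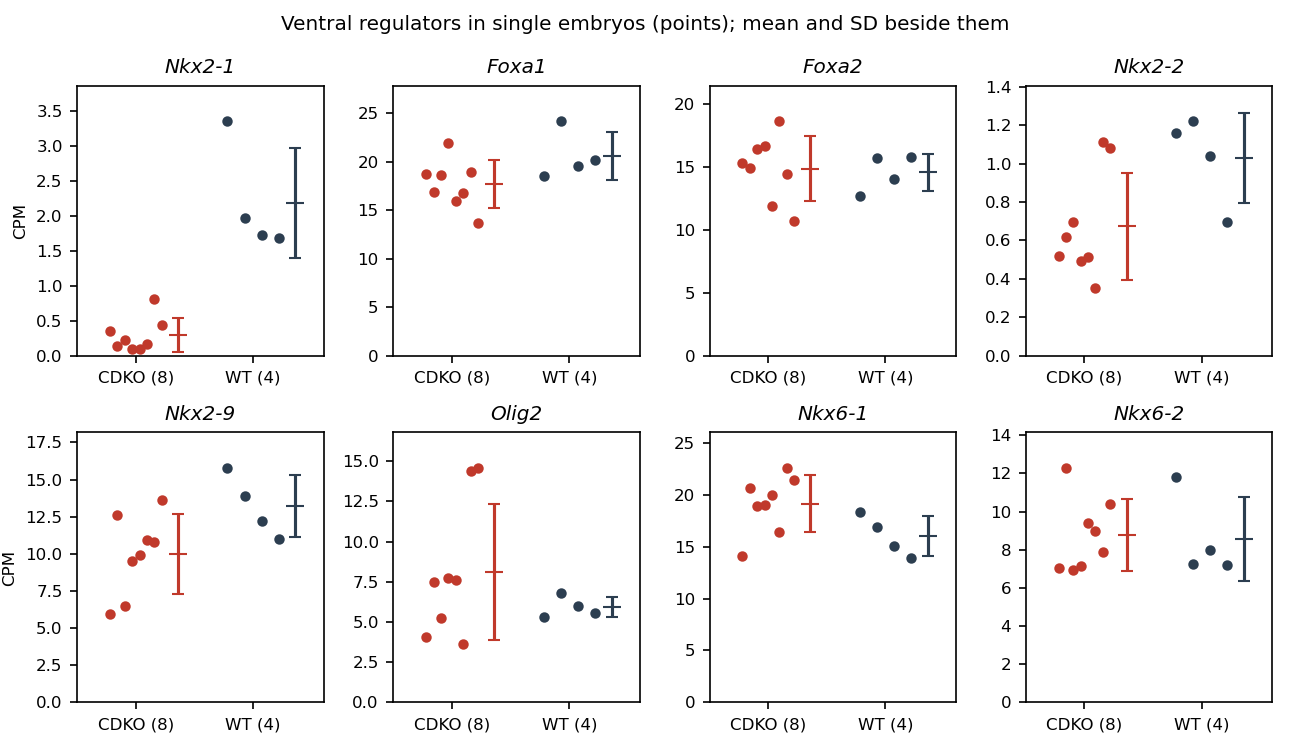
CPM of each regulator in single embryos (points; 8 CDKO on the left, 4 WT on the right of each panel), with the group mean and SD beside the points; each panel has its own y axis from 0. The CDKO and WT points are separate only for Nkx2-1, and CDKO embryos 7 and 8 stand at the top of the Olig2 panel.

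Nkx2-1 and Nkx2-9 lie next to each other on chromosome 12 in the RefSeq annotation, and their promoters are shown because 1 of these neighbours was called lower and the other was not. Both sequences are the 250 bases before the gene's start in RefSeq, build GRCm38.p6, minus strand, written 5′ to 3′. Capitals mark GGTGGTC, the shorter form of the core that GLI factors bind, the transcription factors of the hedgehog pathway. The Nkx2-1 window is chr12:56536909-56537158 and the Nkx2-9 window is chr12:56613285-56613534.
Nkx2-1: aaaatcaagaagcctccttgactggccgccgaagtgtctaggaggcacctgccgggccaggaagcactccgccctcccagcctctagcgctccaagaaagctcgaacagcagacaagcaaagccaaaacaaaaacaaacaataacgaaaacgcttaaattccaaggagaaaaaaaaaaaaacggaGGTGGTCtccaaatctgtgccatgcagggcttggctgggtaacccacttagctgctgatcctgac
Nkx2-9: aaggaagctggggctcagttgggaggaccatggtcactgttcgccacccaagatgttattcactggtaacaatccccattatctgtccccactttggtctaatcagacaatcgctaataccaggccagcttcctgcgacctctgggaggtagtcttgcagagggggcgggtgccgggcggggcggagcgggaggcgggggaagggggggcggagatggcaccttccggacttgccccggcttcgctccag
GGTGGTC or its reverse complement occurs in 2.34% of 32851 RefSeq promoter windows of this length, and among the 10 windows of the 8 regulators it was found in those of Nkx2-1 and Olig2. The longer core TGGGTGGTC, which contains the shorter one, occurs in 0.225% of all windows and in none of these 10. TGTTTAC, a forkhead core of the kind Foxa proteins bind, occurs in 3.17% of all windows and was found in that of Foxa1. CTGTCA, the core that Tgif proteins bind, occurs in 15.9% of all windows and in none of the 10. Each motif was searched on both strands, and a match describes the letters in the window only.

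The genes beside Nkx2-1 were not called over all 12 embryos. Mbip, on its other side, was at 19.4 CPM in CDKO embryos and 18.3 CPM in WT embryos (log2 fold change 0.08, SE 0.08, adjusted p = 0.407, edgeR). Nkx2-9 had a log2 fold change of -0.41 that did not pass over all 12 embryos and passed without CDKO embryos 7 and 8. Pax9, next to Nkx2-9 and a regulator of the pharyngeal pouches, was at 4.23 CPM in CDKO embryos and 3.48 CPM in WT embryos (0.28, adjusted p = 0.0756, edgeR). Foxa1 lies farther along the same chromosome.

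Nkx2-1 was next read against other forebrain genes of the same embryo. Within each embryo, the difference in log2 CPM between 2 genes gives their log2 ratio, and the gene lengths cancel when ratios are compared between groups. Together 32 ratios were tested by exact two-sided permutation over embryos and adjusted over the 32. They comprise the 28 pairs of regulators and 4 pairs chosen after their values were seen. The share of ratios of other gene pairs that would pass or separate the groups was not computed. The Nkx2-1 to Six3 ratio averaged -5.35 ± 0.94 in CDKO embryos and -3.48 ± 0.25 in WT embryos (SD, n = 8 and 4), with every CDKO embryo below every WT embryo (difference -1.87, exact permutation p = 0.00808, adjusted p = 0.0185). Six3 is an anterior forebrain and eye regulator that itself fell. The ratio to Hesx1, a forebrain and pituitary regulator, differed by -1.50 with 6 CDKO embryos below and 2 above the WT embryos, and did not pass (adjusted p = 0.108, exact permutation). Relative to Six3, then, Nkx2-1 was lower in each CDKO embryo than in any WT embryo, and relative to Hesx1 it was not. The closest embryos for Six3 were CDKO embryo 7 at -3.85 on 14 Nkx2-1 reads and WT embryo 3 at -3.77 on 30. On so few reads the order of these embryos is not resolved.

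Among the forebrain, hypothalamus and eye field genes as a list, 3 of the 7 tested fell and none rose, with a median log2 fold change of -0.25, where the median over all genes tested was 0.007 and 51.5% of them were called. Six3 was at 14.7 ± 3.66 CPM in CDKO embryos and 25.4 ± 8.19 CPM in WT embryos (log2 fold change -0.79, SE 0.21, adjusted p = 0.00568, edgeR). Hesx1 was at 2.11 ± 0.872 CPM in CDKO embryos and 4.56 ± 1.70 CPM in WT embryos (-1.11, SE 0.31, adjusted p = 0.00869, edgeR). WT embryo 1 again held the highest score of the WT embryos for this list, 4.08 against 3.46 to 3.62 in the other WT embryos. Without it, Hesx1 no longer passed (adjusted p = 0.0527, edgeR) and Six3 still did (adjusted p = 0.0294, edgeR). Rax, needed for the eye field and hypothalamus, was at 11.2 ± 2.23 CPM in CDKO embryos and 8.41 ± 1.92 CPM in WT embryos and did not pass (0.42, adjusted p = 0.0506, edgeR). It gained a call as higher under 9 of 26 alternatives, among them DESeq2 and edgeR without CDKO embryos 7 and 8 (adjusted p = 0.0445). Its log2 fold change stayed positive in all of them, at 0.34 to 0.59 with 1 embryo left out and 0.39 to 0.58 otherwise. Nkx2-4, a close relative of Nkx2-1 in the hypothalamus, had 9 reads over the 8 CDKO libraries and 16 over the 4 WT libraries and was too low to test, as was Otp with 2 reads and 0 reads. Without CDKO embryos 7 and 8, 4 of the 7 list genes were lower and 1 was higher, with 53.6% of all genes called. Without CDKO embryo 2 and WT embryo 1, 2 were lower and 1 was higher, with 43.8% of all genes called.

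**Figure D3:**
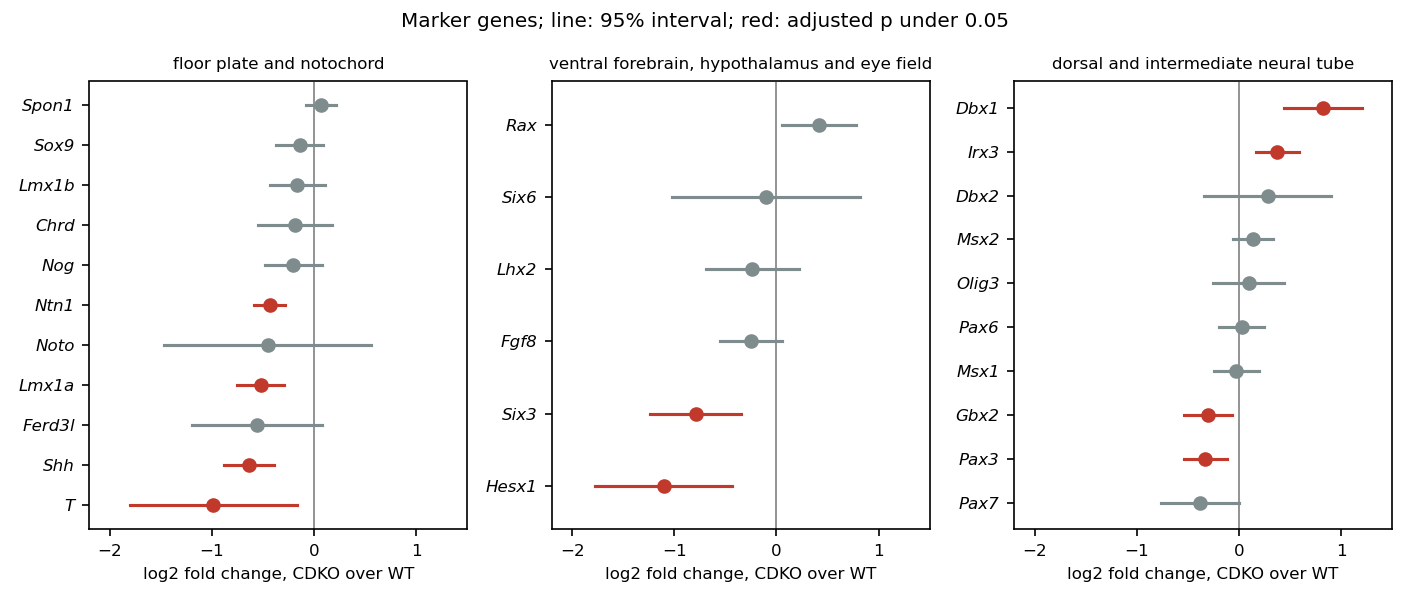
Log2 fold change, CDKO over WT (x axis), of tested genes of the floor plate and notochord, ventral forebrain, and dorsal and intermediate neural tube lists (1 panel a list), with 95% intervals; red marks an adjusted p under 0.05. In the forebrain panel Hesx1 and Six3 lie at -1.11 and -0.79, in the floor plate panel the 4 genes called are all lower, and in the neural tube panel Dbx1 and Irx3 are higher.

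Nkx2-1 also marks thyroid and lung primordia, so gut endoderm genes were read beside it. Of 12 gut endoderm, thyroid and lung genes, all tested, 2 fell and 1 rose, while 9 stayed uncalled, with a median log2 fold change of 0.15, where 24.9% of all genes tested were lower and 26.6% higher. Without CDKO embryos 7 and 8, 2 were lower and 3 higher, with 53.6% of all genes called. Without CDKO embryo 2 and WT embryo 1, 2 were lower and none higher, with 43.8% of all genes called. Trh, which encodes the precursor of thyrotropin-releasing hormone, had a log2 fold change of -0.72 (adjusted p = 0.00579, edgeR), and Epcam, an epithelial adhesion protein, one of -0.27 (adjusted p = 0.0074, edgeR). Pyy, a gut peptide hormone, had one of 1.12 (adjusted p = 0.0303, edgeR), which did not pass without any 1 of the WT embryos, without CDKO embryo 2 or 5, or without CDKO embryo 2 and WT embryo 1 together (adjusted p = 0.0503 to 0.0964, edgeR). Among the uncalled genes were Pax8 (-0.18, adjusted p = 0.269, edgeR) and Hhex (0.23, adjusted p = 0.314, edgeR). The summed level of the list was 447 to 569 CPM in CDKO embryos and 521 to 559 CPM in WT embryos. Sox2, which is also in the pan-neural list, averaged 152 CPM in CDKO embryos and 140 CPM in WT embryos. Neither the count nor the sum is therefore one of gut alone. The part of these tissues in the Nkx2-1 result was not tested.

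The forkhead factors Foxa1 and Foxa2, which open chromatin in endoderm and floor plate, did not pass the test. Foxa2 was at 10.7 CPM at the lowest, 15.1 at the median and 18.6 at the highest in CDKO embryos, against 12.7, 15.7, 14.0 and 15.8 CPM in WT embryos. The groups overlapped on both sides: 2 CDKO embryos lay below all WT embryos and 3 above. Its log2 fold change was 0.03 with a 95% interval of -0.25 to 0.30, which leaves out changes beyond about that size (adjusted p = 0.886, edgeR). The sign of this value turned negative in some alternatives, for instance -0.037 for Foxa2 without WT embryo 1. Foxa1 was at 13.7, 17.8 and 22 CPM (lowest, median and highest) in CDKO embryos, against 18.5, 24.2, 19.6 and 20.2 CPM in WT embryos. Here 4 CDKO embryos lay below all WT embryos and none above (log2 fold change -0.22, 95% interval -0.45 to 0.02, adjusted p = 0.108, edgeR). Without CDKO embryo 4, Foxa1 was called lower (adjusted p = 0.0394, edgeR).

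Shh, the ligand that Foxa2-expressing midline cells make, did fall. It was at 13.8 ± 2.15 CPM in CDKO embryos and 21.5 ± 2.24 CPM in WT embryos (log2 fold change -0.64, SE 0.12, adjusted p = 0.000313, edgeR), with all 8 CDKO embryos below all WT embryos. The Shh to Foxa2 ratio, chosen after its values were seen, averaged -0.10 ± 0.30 on the log2 scale in CDKO embryos and 0.56 ± 0.23 in WT embryos, a difference of -0.65 (exact permutation p = 0.00606, adjusted over the 32 ratios 0.0176). It was below every WT embryo in 8 of 8 CDKO embryos. Foxa2 is also made by gut endoderm and Shh by gut endoderm and other tissues, so the ratio is one over the whole embryo and not over midline cells.

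Of 12 floor plate and notochord genes, 4 fell, none rose and 8 did not pass, with a median log2 fold change of -0.38; over all genes tested 24.9% were lower and 51.5% were called in either direction. Besides Shh these were Ntn1, Lmx1a and T. Ntn1, the netrin that guides commissural axons, was at 89.7 ± 8.28 CPM in CDKO embryos and 121 ± 9.52 CPM in WT embryos (-0.43, SE 0.07, adjusted p = 0.000125, edgeR). Lmx1a, a roof plate and midbrain floor plate factor, was at 7.88 ± 1.03 CPM in CDKO embryos and 11.3 ± 0.791 CPM in WT embryos (-0.52, SE 0.11, adjusted p = 0.000889, edgeR). In both genes the groups did not overlap. T, the Brachyury factor of notochord and primitive streak, had a log2 fold change of -0.99 (adjusted p = 0.0443, edgeR) that did not pass without any 1 of the WT embryos or without CDKO embryo 1, 5, 7 or 8 (adjusted p up to 0.105, edgeR). Ferd3l, Nog, Lmx1b, Sox9, Chrd and Noto had log2 fold changes between -0.56 and -0.14 and Spon1 one of 0.06, none passing. Without CDKO embryo 2 and WT embryo 1, and without CDKO embryos 7 and 8, the list again had 4 genes lower and none higher. T was not among them without CDKO embryos 7 and 8. In these fits 43.8% and 53.6% of all genes were called. The summed level of the list was 260 to 315 CPM in CDKO embryos and 333 to 374 CPM in WT embryos.

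Beside the floor plate, Nkx2-2 and Nkx2-9 were both lower on average in CDKO embryos without passing the test over all 12 embryos. Nkx2-9 was at 5.92, 10.4 and 13.6 CPM (lowest, median and highest) in CDKO embryos, against 15.8, 13.9, 12.2 and 11.0 CPM in WT embryos. In 6 of 8 CDKO embryos it was below all WT embryos (log2 fold change -0.41, SE 0.19, 95% interval -0.82 to 0.01, adjusted p = 0.0912, edgeR). Nkx2-2 was at 0.353, 0.569 and 1.11 CPM (lowest, median and highest) in CDKO embryos, against 1.16, 1.22, 1.04 and 0.698 CPM in WT embryos. Again 6 of 8 CDKO embryos were below all WT embryos, on 6 to 22 reads per CDKO embryo and 14 to 24 per WT embryo (-0.60, SE 0.29, 95% interval -1.22 to 0.02, adjusted p = 0.0958, edgeR). The 2 CDKO embryos within the WT range for Nkx2-2 were embryos 7 and 8, at 1.11 and 1.08 CPM. Without these 2 embryos, Nkx2-2 had a log2 fold change of -0.94 (adjusted p = 0.00583, edgeR) and Nkx2-9 one of -0.52 (adjusted p = 0.0388, edgeR). The pair was chosen after the data were seen. For Nkx2-2 it takes out the only CDKO embryos that overlapped the WT range, so the fit without them is no separate support. Nkx2-2 overlaps the noncoding genes Nkx2-2os and 6430503K07Rik in the RefSeq annotation, and the strand setting of the counting is not stated, so its reads cannot be told from theirs. In the same annotation Nkx2-9 overlaps the noncoding Gm26973, Olig2 the noncoding Gm52261 and Foxa1 the protein-coding Ttc6. Some reads of these regulators could therefore be from those genes.

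Nkx6-1, which with Nkx2-2 and Olig2 sets the boundaries of ventral progenitor domains, leaned the other way. It was at 14.1, 19.5 and 22.6 CPM (lowest, median and highest) in CDKO embryos, against 18.3, 16.9, 15.1 and 13.9 CPM in WT embryos. It was above the WT mean in 7 of 8 CDKO embryos, with no call over all 12 embryos (log2 fold change 0.25, SE 0.12, 95% interval 0.005 to 0.50, adjusted p = 0.0818, edgeR). Its unadjusted p was 0.0462, and without CDKO embryo 1 it was called higher (adjusted p = 0.018, edgeR). Nkx6-2, its paralogue, was at 6.94, 8.43 and 12.3 CPM (lowest, median and highest) in CDKO embryos, against 11.8, 7.24, 8.0 and 7.18 CPM in WT embryos. WT embryo 1 and CDKO embryo 2 had the highest value of their groups, and the log2 fold change was 0.04 with a 95% interval of -0.33 to 0.41 (adjusted p = 0.861, edgeR). Nkx6-2 lies within Inpp5a in the RefSeq annotation, an inositol phosphatase gene at 43.3 CPM in CDKO embryos and 39.7 CPM in WT embryos, so some of its reads could be from that gene.

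Among the 6 regulators that averaged 1 CPM or more over the 12 embryos, Olig2 spread most between CDKO embryos. In CDKO embryos it was at 3.65 CPM at the lowest, 7.56 at the median and 14.6 at the highest, against 5.33, 6.79, 5.99 and 5.58 CPM in WT embryos. CDKO embryos 7 and 8 were at 14.4 and 14.6 CPM, and the other 6 lay between 3.65 and 7.75 CPM, on both sides of the WT range. Its log2 fold change was 0.46 (SE 0.36, 95% interval -0.32 to 1.23, adjusted p = 0.304, edgeR), and without these 2 embryos that of Olig2 was 0.02 (adjusted p = 0.955, edgeR). The coefficient of variation of Olig2 was 52.5% in CDKO embryos and 10.8% in WT embryos, a ratio of 4.88. Over the 13300 tested genes that averaged 1 CPM or more the median coefficients were 10.2% in CDKO embryos and 6.52% in WT embryos, and 3.86% of them had a ratio of at least that of Olig2. Olig1, the neighbouring gene and the other Olig factor of this cluster, was at 1.11 CPM in CDKO embryos and 0.599 CPM in WT embryos (log2 fold change 0.89, SE 0.39, adjusted p = 0.0655, edgeR).

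CDKO embryos 7 and 8 ranked highest of the 8 CDKO embryos for 4 of the regulators, Nkx2-1, Nkx2-2, Nkx6-1 and Olig2. For Nkx6-1 they were at 22.6 and 21.4 CPM, above all WT embryos. For Nkx2-1 they were at 0.815 and 0.442 CPM, still under the lowest WT embryo. These embryos also had the highest early ventral neuron scores of the CDKO group, 2.92 and 3.08 against 2.17 to 2.70 in the other 6. Their pan-neural scores, 6.58 and 6.63, and somite scores, 3.89 and 3.90, were the highest of that group too. The part of these tissues in the spread of Olig2 was not tested.

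Ratios between regulators separated the groups for some pairs whose single genes did not. The Nkx2-2 to Nkx6-1 ratio averaged -4.69 ± 0.37 on the log2 scale in CDKO embryos and -3.85 ± 0.19 in WT embryos (difference -0.84, exact permutation p = 0.00404, adjusted over the 32 ratios 0.0144). The Nkx2-9 to Nkx6-1 ratio averaged -0.97 ± 0.32 in CDKO embryos and -0.28 ± 0.05 in WT embryos (difference -0.69, exact permutation p = 0.00606, adjusted p = 0.0176). For both ratios all 8 CDKO embryos lay below all 4 WT embryos. The genes of the progenitors nearest the floor plate were thus lower relative to the broader Nkx6-1 in every CDKO embryo than in any WT embryo, CDKO embryos 7 and 8 included. For Nkx2-2 the groups came close: CDKO embryo 8 was at -4.18 on 22 Nkx2-2 reads and WT embryo 4 at -4.12 on 14. On so few reads the order of these embryos is not resolved, and the overlap of Nkx2-2 with noncoding genes applies here too. Among single genes, 34.7% of those tested had groups that did not overlap. Whether such separation is particular to ratios of these regulators was not tested. Nkx2-9 to Nkx6-2 differed by -0.48 (adjusted p = 0.0185, exact permutation), with 7 of 8 CDKO embryos below the WT range. Nkx2-2 to Olig2 differed by -0.88 (adjusted p = 0.0185, exact permutation), with 6 of 8 below. Leaving out CDKO embryo 2 and WT embryo 1 together brought the Nkx2-2 to Olig2 difference to -0.76 with an unadjusted exact permutation p of 0.0583.

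Of the 28 pairs of regulators, 11 had an adjusted p under 0.05, and 7 of these are the pairs with Nkx2-1, which fell against each of the other regulators. Those 7 differences ranged from -2.94, against Olig2, to -2.06, against Nkx2-2, with all CDKO embryos below all WT embryos in each. These 7 pairs restate the fall of Nkx2-1 and are no separate support. Its mean log2 CPM differed by -2.65 between the groups, and that of the other regulators by -0.59 to 0.29. Pairs among Foxa1, Foxa2 and the Nkx6 genes did not pass. Foxa1 to Nkx6-1 differed by -0.47 (adjusted p = 0.0799, exact permutation) and Foxa1 to Foxa2 by -0.23 (adjusted p = 0.0799, exact permutation). Nkx2-2 to Nkx2-9 differed by -0.15 (adjusted p = 0.668, exact permutation), so these close relatives were not separated from each other.

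**Figure D4:**
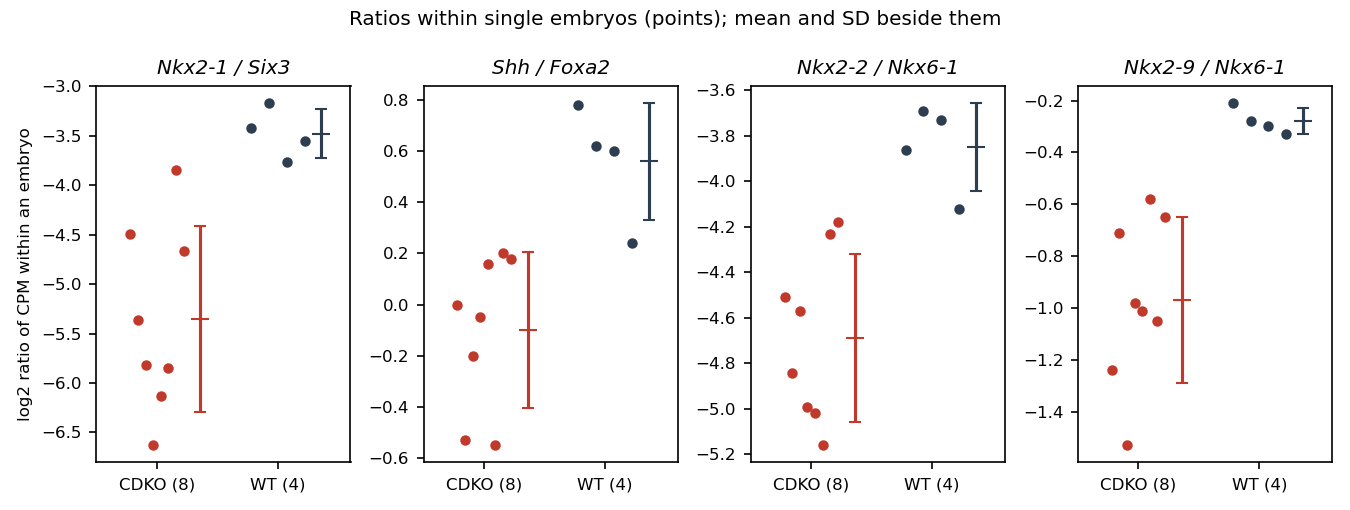
Log2 ratio of CPM within single embryos (y axis; points, 8 CDKO on the left and 4 WT on the right of each panel) for Nkx2-1 to Six3, Shh to Foxa2, Nkx2-2 to Nkx6-1 and Nkx2-9 to Nkx6-1, with the group mean and SD beside the points. In each panel all CDKO points lie below all WT points, with mean differences of -1.87, -0.65, -0.84 and -0.69.

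Compared per length, as CPM per kilobase of exon (RPKM), Nkx2-9 was the most abundant of the regulators in both groups, at 7.89 ± 2.12 RPKM in CDKO embryos and 10.5 ± 1.65 RPKM in WT embryos. In WT embryos its range, 8.72 to 12.5 RPKM, was above that of every other regulator, whereas in CDKO embryos it reached down to 4.68 RPKM and overlapped every other regulator but Nkx2-1 and Nkx2-2. Foxa2 was at 6.26 ± 1.08 RPKM in CDKO embryos and 6.14 ± 0.626 in WT embryos, and Foxa1 was at 5.34 ± 0.742 in CDKO embryos and 6.20 ± 0.748 in WT embryos. Nkx6-1 was at 6.09 ± 0.876 RPKM in CDKO embryos and 5.11 ± 0.626 in WT embryos, and Nkx6-2 was at 4.60 ± 1.0 in CDKO embryos and 4.48 ± 1.14 in WT embryos. The ranges of neighbours among these 4 overlapped in both groups, so their order is not resolved. Olig2 followed at 3.21 ± 1.69 RPKM in CDKO embryos and 2.34 ± 0.252 in WT embryos. Nkx2-1 and Nkx2-2 were the lowest. Nkx2-1 was at 0.104 ± 0.0855 RPKM in CDKO embryos and 0.77 ± 0.278 in WT embryos, and Nkx2-2 was at 0.234 ± 0.0966 in CDKO embryos and 0.357 ± 0.0806 in WT embryos. Between these genes the order differed by group: in WT embryos the Nkx2-1 range, 0.596 to 1.18 RPKM, was above that of Nkx2-2, 0.243 to 0.423, and in CDKO embryos the ranges overlapped.

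The hedgehog pathway itself, from ligand to target, was read from 20 other genes, of which 18 were tested. In CDKO embryos 6 of these fell and 2 rose, while 10 stayed uncalled, with a median log2 fold change of -0.05. The 8 called of 18 are a smaller share than the 51.5% called over all genes tested, of which 24.9% were lower. Among those that fell were Shh, Gpr161, Gli1, Smo, the membrane protein that transduces the signal, and Gli3, the main repressor among the GLI factors. Those that rose were Sufu, which holds GLI factors back, and Boc, a coreceptor. Among the targets, Gli1, a transcription factor that the pathway switches on, was at 42.6 ± 5.61 CPM in CDKO embryos and 56.0 ± 5.04 CPM in WT embryos (log2 fold change -0.40, SE 0.09, adjusted p = 0.00218, edgeR). Ptch1, the receptor that the pathway also switches on, was at 161 ± 29.1 CPM in CDKO embryos and 195 ± 21.6 CPM in WT embryos and did not pass (-0.27, SE 0.13, adjusted p = 0.0901, edgeR). Gpr161, a receptor that restrains the pathway in the cilium, had one of -0.58 (adjusted p = 0.000912, edgeR). Disp1, needed to release the ligand, was listed at 0 in all 12 embryos, and Dhh was too low to test. The annotation used for counting is not given, so the 0 for Disp1 is not read as absence of its RNA. Without CDKO embryo 2 and WT embryo 1, 4 of the 18 genes were lower and none higher, with 43.8% of all genes called. Without CDKO embryos 7 and 8, 6 were lower and 1 was higher, with 53.6% of all genes called.

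The rest of the neural tube gives the ventral genes their setting. Of the 10 dorsal and intermediate neural tube genes that were tested, the test called 2 higher and 2 lower in CDKO embryos and left 6 uncalled (24.9% of all genes tested were lower and 26.6% higher), with a median log2 fold change of 0.06. Dbx1, which marks intermediate progenitors, was at 14.6 ± 3.74 CPM in CDKO embryos and 8.24 ± 1.17 CPM in WT embryos, with no overlap (0.82, SE 0.18, adjusted p = 0.00151, edgeR). Irx3, expressed dorsal of the Olig2 domain, was at 142 ± 20.5 CPM in CDKO embryos and 109 ± 5.44 CPM in WT embryos (0.38, SE 0.10, adjusted p = 0.00513, edgeR). Pax3, a dorsal factor, had a log2 fold change of -0.33 (adjusted p = 0.0108, edgeR), and Gbx2, a hindbrain factor, had one of -0.31 (adjusted p = 0.0317, edgeR) that did not pass without WT embryo 2 or 4, CDKO embryo 1, or CDKO embryos 7 and 8 together (adjusted p = 0.0521 to 0.113, edgeR).

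Of 8 early ventral neuron genes listed, 6 were tested and the rest were too low to test. The test called 3 of the 6 lower and 1 higher in CDKO embryos, where 24.9% of all genes tested were lower and 26.6% higher. Each gene called is also made in other tissues, named below, so the count is not one of neurons alone. Sim1, a marker of V3 interneurons that descend from Nkx2-2 progenitors and also of somite and kidney mesoderm, was at 2.25 ± 0.587 CPM in CDKO embryos and 4.51 ± 1.28 CPM in WT embryos (log2 fold change -1.01, SE 0.21, adjusted p = 0.00103, edgeR). Mnx1, a motor neuron factor also made in notochord and gut, was at 2.43 ± 0.928 CPM in CDKO embryos and 4.86 ± 0.294 CPM in WT embryos, with no overlap (-1.01, SE 0.27, adjusted p = 0.00669, edgeR). Dll1, a Notch ligand of both newborn neurons and presomitic mesoderm, had a log2 fold change of -0.60 (adjusted p = 0.0374, edgeR) and did not pass without WT embryo 2, 3 or 4 or CDKO embryo 1, 5 or 6 (adjusted p = 0.0529 to 0.113, edgeR). Isl1, a motor neuron factor that second heart field cells share, had one of 0.20 (adjusted p = 0.0401, edgeR) and did not pass without WT embryo 1, 3 or 4 or CDKO embryo 1, 4, 6 or 8 or CDKO embryos 7 and 8 together (adjusted p = 0.0503 to 0.132, edgeR).

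Markers of other tissues moved too, where over the 12 embryos 24.9% of all genes tested were lower and 26.6% higher. Of 8 posterior tissue genes, 4 fell (Wnt3a, Hes7, Dll3 and Tbx6, the last not called without CDKO embryos 7 and 8, adjusted p = 0.0828, edgeR). Without CDKO embryo 2 and WT embryo 1, 7 of the 8 were called lower, and without CDKO embryos 7 and 8, 3 were. In these fits 43.8% and 53.6% of all genes were called in either direction. The posterior list had a summed level of 21.9 to 188 CPM in CDKO embryos and 222 to 323 CPM in WT embryos. All 4 heart genes (Myh6, Tnnt2, Myl7 and Nkx2-5) rose, at 848 to 1500 CPM summed in CDKO embryos and 553 to 666 CPM in WT embryos. Of 4 somite genes 2 fell (Tcf15 and Uncx), at 56.6 to 103 CPM summed in CDKO embryos and 63.0 to 145 CPM in WT embryos, and 3 of the 4 were called lower without CDKO embryo 2 and WT embryo 1, and likewise without CDKO embryos 7 and 8. None of 10 yolk sac endoderm genes or of 6 primitive red cell genes was called by edgeR over all 12 embryos. At an unadjusted p under 0.05 edgeR gave no yolk sac gene and 1 lower red cell gene. DESeq2 called no yolk sac gene and 1 red cell gene lower, limma-voom called 1 and 2 lower, and limma-voom with sample weights 1 and 5 lower. Without CDKO embryos 7 and 8, edgeR called 2 of the 6 red cell genes lower and no yolk sac gene. Their summed levels were 742 to 3510 and 36.7 to 1670 CPM in CDKO embryos, against 629 to 2290 and 781 to 1300 CPM in WT embryos. None of the 5 pan-neural genes was called by edgeR and none had an unadjusted p under 0.05, with 419 to 616 CPM summed in CDKO embryos and 460 to 549 CPM in WT embryos. Fits with the yolk sac, posterior or pan-neural score as a covariate are given in the last section. Beyond these fits, the part of these tissues in the values of the ventral regulators was not tested.

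For each regulator averaging 1 CPM or more in either group, the genes with the most similar profile were sought among 12603 genes. Log2 CPM were centred on each gene's mean over the 12 embryos. The genes named differed least from the regulator, as a root mean square difference over the 12 embryos. Psma8 (0.561) and Fgfbp1 (0.606) were closest to Nkx2-1, with log2 fold changes of -2.35 and -2.33. Foxa1 was closest to Styx (0.125) and Kcnk5 (0.126), and Foxa2 to Llgl2 (0.13) and Glul (0.13). Closest to Nkx2-2 were Sema3c (0.192) and Lrrn1 (0.218), and to Nkx2-9 Rgs2 (0.193) and Dcdc2a (0.211). Dusp16 (0.103) and D0H4S114 (0.104) were closest to Nkx6-1, Mylpf (0.169) and Mn1 (0.191) to Nkx6-2, and Chrna4 (0.189) and Ebf3 (0.241) to Olig2. The regulators' own spread of centred values, also a root mean square over the 12 embryos, ran from 0.204 for Foxa1 and 0.212 for Foxa2 to 1.39 for Nkx2-1. A small distance to a regulator that varied little is therefore weak likeness. These distances describe the 12 embryos, whose 2 groups differ in genotype and in whatever else differs between them.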

How the data were processed

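Poly-A RNA of 12 single embryos was sequenced as paired 50-base reads, per the labels' protocols. The submitters' processing notes name FastQC, STAR, featureCounts and DESeq2 without versions, and build mm9; the sources used here give neither strand setting nor annotation. The authors deposited raw counts per gene, and every value in the report was computed from those counts. Counts were filtered with filterByExpr, TMM-scaled and tested with edgeR 4.0.16 (R 4.3.3; quasi-likelihood, robust, genotype as the only term), with Benjamini-Hochberg adjustment over 14412 genes at a threshold of 0.05. Standard errors are the fold change over the square root of F. CPM are TMM-scaled, and log2 CPM use a prior count of 2. RPKM use exon unions of GENCODE M21, which is not of build mm9, so gene models can differ. DESeq2 1.42.0, limma 3.58.1, other scalings, filters and thresholds, marker scores as covariates and embryos left out were the alternatives. On simulated counts of 14298 genes the CDKO and WT fit recovered 42 of 66 genes changed 1.5-fold, 61 of 68 changed 2-fold and 61 of 61 changed 4-fold. The simulation called 167 genes where the data gave 7423, so these shares need not hold for the data. No 2 embryos of a group agreed within sampling noise (lowest chi-square per degree of freedom 3.89 over 34 pairs). Replicate numbers follow accession order and pair nothing. The 8 regulators and all gene lists were chosen with earlier results of these data known, the 4 ratios to other genes after their values were seen. Named are all 8 regulators, Tgif1 and Tgif2, up to 4 called genes of lowest p in each list, Shh, Ptch1 and Gli1, the 2 nearest profiles and chromosomal neighbours; other genes named were added after their values were seen. A few listed genes are counted in their lists but not reported here by name. Apart from the overlapping Nkx2-2os and Inpp5a, no other gene model shared 200 bases at 95% identity with a regulator (BLAST).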

Additional observations from a re-analysis of the deposited data

Results flagged for a closer look

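In 3 of 46 groups of values looked at, 1 embryo lay far from the rest of its group; chance alone does this in about 1 in 20 groups. Nkx2-1 was at 3.36 CPM in WT embryo 1, with 1.69 to 1.98 CPM in the other 3 WT embryos. The posterior tissue score was -0.239 in CDKO embryo 2, with 3.02 to 3.77 in the other 7 CDKO embryos. The same score was 3.84 in WT embryo 1, with 4.44 to 4.49 in the other 3 WT embryos.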

How the results depend on the processing

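The 7423 genes called stayed within 1.5 times under all 26 alternatives, 6485 to 7524 with 1 embryo left out and 5488 to 8639 otherwise. Nkx2-1 stayed lower and called under all 27 alternatives (log2 fold change -3.52 to -2.49), and Olig2 stayed uncalled under all 27. Of the regulators, 1 was called lower; 3 were with limma-voom sample weights, with the yolk sac or the pan-neural score as covariate and without CDKO embryos 7 and 8, 2 with the posterior score as covariate, and 1 to 3 with 1 embryo left out. None was called higher; 1 was with the sample weights and with the yolk sac score, and 0 to 1 with 1 embryo left out. Nkx2-2 gained a call under 6 alternatives (adjusted p = 0.00583 to 0.0498), Nkx2-9 under 6 (0.0183 to 0.0491), Nkx6-1 under 3 (0.0136 to 0.0229) and Foxa1 under 1. Foxa2 turned negative at -4e-04 with limma-voom, -0.035 with sample weights and -0.033 without CDKO 2 and WT 1, and ran from -0.037 to 0.079 with 1 embryo left out. Nkx6-2 turned negative at -0.202 with the posterior and -0.003 with the pan-neural score, and ran from -0.045 to 0.23 with 1 embryo left out. Of the hedgehog genes 8 were called; 3 were at a threshold of 0.01, 5 with the posterior score and 4 without CDKO 2 and WT 1, and 6 to 10 with 1 embryo left out. The 6 lower became 3 at 0.01 and 5 to 8 with 1 embryo left out. The 2 higher became 0 at 0.01 and without CDKO 2 and WT 1, 1 with the posterior score and without CDKO 7 and 8, and 0 to 2 with 1 embryo left out. The causes were not tested. The pan-neural covariate and both pairs of embryos left out were chosen after seeing the data. No paired analysis was possible because the labels carry no replicate numbers. Depth limits Nkx2-1 and Nkx2-2 most, with at most 14 and 22 reads in any CDKO embryo.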
